A study of Drosophila melanogaster with 12 samples.

Results

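The genes described are the nuclear genes for proteins of the Drosophila mitochondrial ribosome, taken as all genes whose symbol begins with mRpL or mRpS followed by a digit. There were 73 of them among the 16595 genes of the study's pair of lists, an AS list of 2000 genes and a non-AS list of 14595 genes, AS standing for alternative splicing. How genes were put on either list is not given in the sources used, and 832 of the AS-list genes have 1 annotated transcript. All 73 symbols are also the current symbols of the Ensembl annotation, 47 for the large subunit (mRpL) and 26 for the small subunit (mRpS). The libraries were made in a computer and model S2 cells, an embryonic Drosophila line, so no cells were grown or treated. The control group stands for S2 cells given a non-targeting siRNA and held 3 libraries. The 3 test groups stand for S2 cells after knockdown of PSI, an RNA-binding splicing factor, and held 3 libraries each, with a splicing change set at the 60%, 40% or 20% level. Every level was compared with the same 3 control libraries, so the levels are not independent of each other.

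The mitochondrial ribosome translates the few proteins that the mitochondrial genome encodes, which are core subunits of the respiratory chain and the ATP synthase. Its RNAs are encoded in the mitochondrion, while all of its proteins are made in the cytoplasm from nuclear genes and imported. The small subunit holds the decoding site for the messenger RNA, and the large subunit holds the peptidyl transferase centre and the exit tunnel for the new protein. Many of the proteins have bacterial counterparts, and others are found only in mitochondria.

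The deposited tables held 1 score per gene for each of 6 splicing programs at each level, 18 tables in all. A gene absent from a table is called unlisted here. Scores were read as running towards 1 with stronger evidence of a splicing change, and a gene was counted as past the threshold at 0.95 or more, or at a Bayes factor of 10 or more for MISO. Each table pools the 3 knockdown and 3 control libraries of its comparison, so there is no value per library, no spread between replicates and no test over samples, and the read depth is unknown. All differences below are therefore descriptions of 1 set of tables.

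Of the 73 mitochondrial ribosomal protein genes, 13 were on the AS list and 60 on the non-AS list. This share of 17.8% stood beside 12.1% for all genes. By subunit, 8 of the 47 large-subunit genes (17%) and 5 of the 26 small-subunit genes (19.2%) were on the AS list, so the subunits had similar shares. The genes for cytoplasmic ribosomal proteins, with symbols beginning RpL, RpLP or RpS, had 22 of 92 on that list (23.9%). By chromosome arm, 5 of the 13 were among the 17 members on 3L, 4 among the 21 on 3R, 3 among the 11 on X and 1 among the 12 on 2L, and none was among the 12 on 2R.

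The 8 large-subunit genes on the AS list were mRpL11, mRpL15, mRpL21, mRpL22, mRpL30, mRpL32, mRpL40 and mRpL50. mRpL11 is the counterpart of a bacterial protein of the site where translation factors bind, and mRpL22 of one that lines the exit tunnel. mRpL15, mRpL21, mRpL30 and mRpL32 also have bacterial counterparts, and in yeast the counterpart of mRpL32 is matured by a protease of the inner membrane. mRpL40 and mRpL50 belong to the proteins without a bacterial counterpart. The 5 small-subunit genes were mRpS18B, mRpS18C, mRpS25, mRpS26 and mRpS31. mRpS18B and mRpS18C are relatives of the bacterial protein S18, while mRpS25, mRpS26 and mRpS31 have no bacterial counterpart.

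Few of these 13 genes passed the threshold in any program. At the 60% level 2 of the 13 AS-list members (15.4%) passed it in at least 1 program, beside 46.8% of all AS-list genes. All 13 have at most 1 annotated intron chain (the ordered set of introns of a transcript), and of all AS-list genes of that kind 19.7% were past the threshold at the 60% level, 17.3% at 40% and 13.9% at 20%, so the members' share was close to that of genes of like structure. The same 2 genes, mRpS18B and mRpL21, were the only AS-list members past it at the 40% level, where 44.1% of all AS-list genes were, and at the 20% level, where 38.5% were. Counted over both lists, 4 of the 73 members (5.48%) were past it in at least 1 program at the 60% level, beside 7.18% of all 16595 genes. At the 40% and 20% levels 2 of the 73 (2.74%) did, beside 6.66% and 5.65% of all genes. No member passed it in 2 or more programs at any level, whereas 4.52%, 4.16% and 3.41% of all genes did at the 60%, 40% and 20% levels. Among the AS-list genes for cytoplasmic ribosomal proteins 16 of 22 (72.7%) passed it in at least 1 program at each level. At the 60% level 15 of the 22 did so in 2 or more. Of these 22 genes 9 have at most 1 intron chain, and 3 of the 9 (33.3%) passed it at each level. The other 13 have 2 or more chains, and all 13 passed it at each level. By program, Whippet put 3, 2 and 2 members past the threshold from the 60% to the 20% level, beside 5.75%, 5.41% and 4.63% of all genes. MAJIQ put 1, 0 and 0 past it, beside 3.97%, 3.71% and 2.39%. JUM, rMATS and Cufflinks put none past it at any level. For all genes the shares at the 60%, 40% and 20% levels were 3.95%, 3.8% and 3.45% in JUM, 2.71%, 2.58% and 2.27% in rMATS, and 3.08%, 2.51% and 1.18% in Cufflinks. Within the AS list Whippet put the same 2 of 13 members past it at each level, beside 43.3%, 40.4% and 35% of all AS-list genes.

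**Figure D1:**
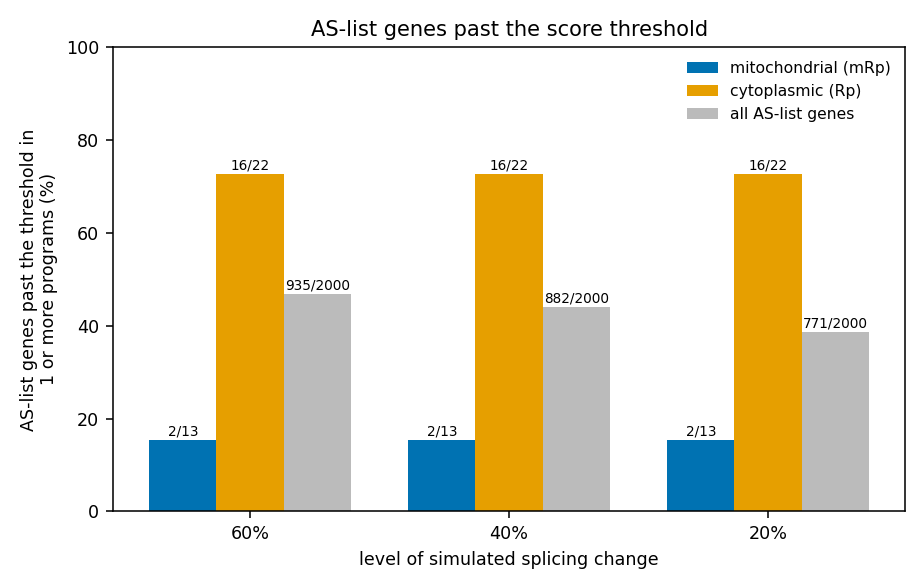
Bars show the percentage of AS-list genes past the score threshold in 1 or more of the 6 programs (vertical axis) at each level of splicing change (horizontal axis), for mitochondrial ribosomal protein genes, cytoplasmic ribosomal protein genes and all AS-list genes, with the counts printed above. The mitochondrial set is at 2 of 13 at every level and the cytoplasmic set at 16 of 22. The sets differ in structure, as all 13 mitochondrial but 9 of the 22 cytoplasmic genes have at most 1 intron chain.

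The program tables differed in whether they held the members at all. Cufflinks listed all 73 members at every level (86.5% of all genes), nearly always with a score of 0. Whippet listed 20 of the 73 (27.4%) at every level, beside 21.8%, 21.9% and 22% of all genes at the 60%, 40% and 20% levels. MAJIQ listed 6 at each level, JUM listed 2 at the 60% level and 3 at the others, rMATS listed 1 and MISO none. Of all genes, MAJIQ listed 12%, JUM 9.13%, rMATS 7.57% and MISO 1.98% at the 60% level. For 51 of the 73 (69.9%) Cufflinks was the only program with an entry at any level, and of all genes 75.9% had no entry in a program other than Cufflinks.

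None of the 13 AS-list members was listed by JUM, MAJIQ, rMATS or MISO at any level. For the whole AS list, 30.8% were listed by JUM, 36.7% by MAJIQ, 25.4% by rMATS and 6.35% by MISO at the 60% level, and 43.4% were listed by JUM, MAJIQ or rMATS at 1 or more levels. Of the 1131 AS-list genes with at most 1 intron chain, as all 13 members have, these 3 programs listed 98 (8.66%) at the 60% level. Of the 60 non-AS-list members, 6 (10%) were listed by JUM, MAJIQ or rMATS at 1 or more levels, close to the 10.3% of all non-AS-list genes. Among non-AS-list genes with at most 1 intron chain, they listed 5 of 55 members (9.09%) at the 60% level, beside 205 of 9899 genes (2.07%). The members that these 3 programs did list were thus all on the non-AS list. Whippet listed 9 of the 13 AS-list members (69.2%) at each level, beside 76.8% of all AS-list genes at the 60% level, and 11 of the 60 non-AS-list members (18.3%), beside 14.3%.

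**Figure D2:**
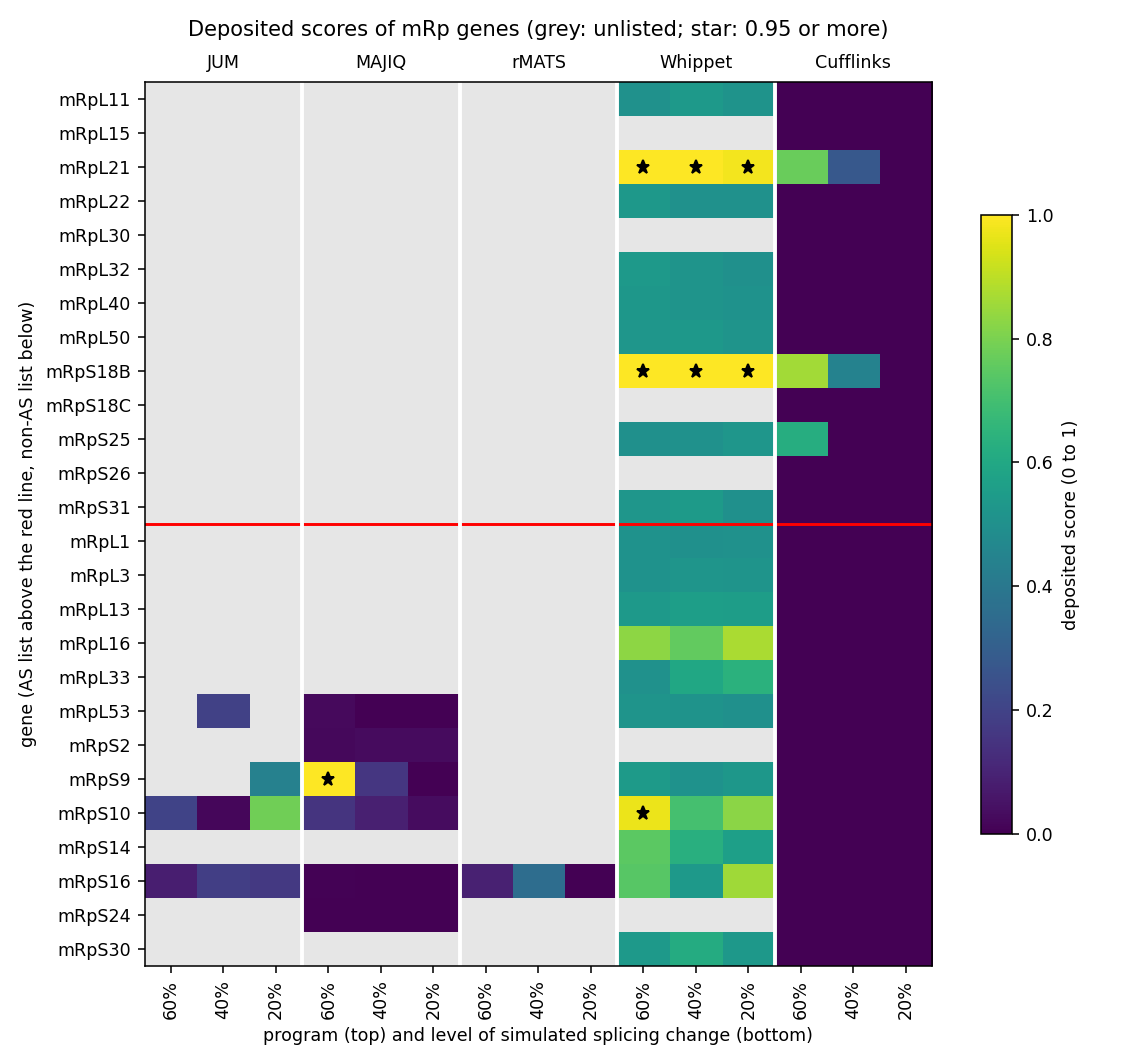
Each row is a gene, the 13 AS-list members above the red line and the 13 non-AS-list members that a program other than Cufflinks listed below it, and each column is a program at the 60%, 40% or 20% level. Colour gives the deposited score from 0 to 1, grey marks unlisted genes and a star marks a score of 0.95 or more, and MISO is left out because it listed no member. Above the line the JUM, MAJIQ and rMATS columns are grey throughout.

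mRpS18B had the highest scores of the AS-list members (FBgn0032849, arm 2L, 20096329 to 20097253, minus strand, BDGP6.54). In the authors' deposited tables its Whippet score was 1 at the 60%, 40% and 20% levels. Its Cufflinks score in the authors' deposited tables was 0.861 at the 60% level, 0.443 at the 40% level and 0 at the 20% level. Whippet thus gave it the top value at every level, a value that 768 genes, itself included, had at 60%, 697 at 40% and 499 at 20%. The Cufflinks score was below the threshold throughout and lower at each smaller level. At the 60% level 565 of the 14361 genes in the Cufflinks table scored higher.

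mRpL21 had the same pattern (FBgn0036853, arm 3L, 19253290 to 19255061, minus strand). In the authors' deposited tables its Whippet score was 1 at the 60% and 40% levels and 0.982 at the 20% level. Its Cufflinks score in the authors' deposited tables was 0.771 at 60%, 0.277 at 40% and 0 at 20%, below that of mRpS18B at the first 2 of these levels. The Whippet score at the 20% level was the lowest of the 6 that put these 2 genes past the threshold.

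mRpS18B and mRpL21 share a feature that the other 11 AS-list members lack, which is more than 1 annotated transcript. The 2 transcripts of mRpS18B have the same single intron and the same coding region of 204 codons, and differ in the length of the 3′ untranslated region, at 144 and 42 bp. The 3 transcripts of mRpL21 also have 1 common intron and 1 coding region, of 201 codons, with 3′ untranslated regions of 54, 178 and 1008 bp. Their outermost 3′ ends lie 954 bp apart, against 102 bp for mRpS18B. In this annotation neither gene has a second arrangement of introns. The encoded protein is therefore the same for every annotated transcript of each gene.

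mRpS25 was the third AS-list member with a Cufflinks score above 0 (FBgn0030572, arm X, 14582136 to 14582982, minus strand, 1 annotated transcript with 2 introns). In the authors' deposited tables Cufflinks gave it 0.623 at the 60% level and 0 at both smaller levels. Its Whippet score in the authors' deposited tables was 0.503 at 60%, 0.505 at 40% and 0.524 at 20%, near the bottom of that table, whose lowest value is 0.5. At the 60% level Cufflinks gave 3 of the 13 AS-list members a score above 0, beside 31.1% of all AS-list genes. At the 40% level it did so for 2, beside 27.7%, and at the 20% level for none, beside 22.6%. No non-AS-list member had a Cufflinks score above 0 at any level. Of all non-AS-list genes, 1.54%, 1.18% and 0.863% had one at the 60%, 40% and 20% levels.

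The other Whippet-listed members of the AS list, mRpL11, mRpL22, mRpL32, mRpL40, mRpL50 and mRpS31, have 1 annotated transcript with 2 introns each, as mRpS25 does. Over these 7 genes the Whippet scores in the authors' deposited tables had a median of 0.527 at the 60% level (0.503 to 0.541), 0.519 at 40% (0.504 to 0.543) and 0.51 at 20% (0.5 to 0.524). For all AS-list genes that Whippet listed, the medians were 0.999, 0.984 and 0.85, and for non-AS-list genes 0.634, 0.633 and 0.633. The 7 genes thus lay below the typical listed gene of either list, within 0.05 of the lowest value of the table. None of them moved by more than 0.041 between levels. For mRpL32 the scores in the authors' deposited tables were 0.541, 0.519 and 0.5 from the 60% to the 20% level, the widest range of the 7. For mRpL50 they were 0.527, 0.532 and 0.518 in the authors' deposited tables, the narrowest. Of the 9 AS-list members in Whippet, 5 had their highest score at the 60% level, counting ties for the larger level, 3 at the 40% level and 1 at the 20% level.

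**Figure D3:**
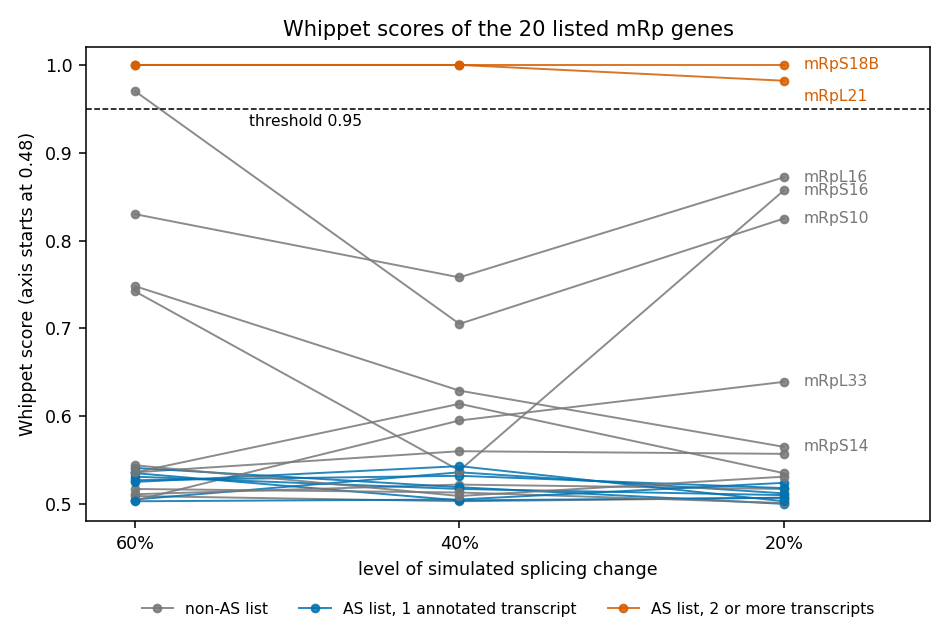
Lines join the Whippet scores (vertical axis, from 0.48) of each of the 20 listed members at the 60%, 40% and 20% levels (horizontal axis), coloured by list and number of annotated transcripts, with the threshold of 0.95 dashed. mRpS18B and mRpL21 lie at 0.982 or more, the 7 AS-list members with 1 transcript lie between 0.5 and 0.543, and the non-AS-list members lie between 0.501 and 0.97.

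The last 4 members of the AS list, mRpL15, mRpL30, mRpS18C and mRpS26, have 1 annotated transcript with 1 intron. They were listed by Cufflinks alone, and their score was 0 at every level in the authors' deposited tables. Within the AS list, the members that Whippet did and did not list were therefore split exactly by annotated structure. The 4 genes with 1 transcript and 1 intron were unlisted, and the 9 with 2 introns or with several transcripts were listed.

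**Figure D4:**
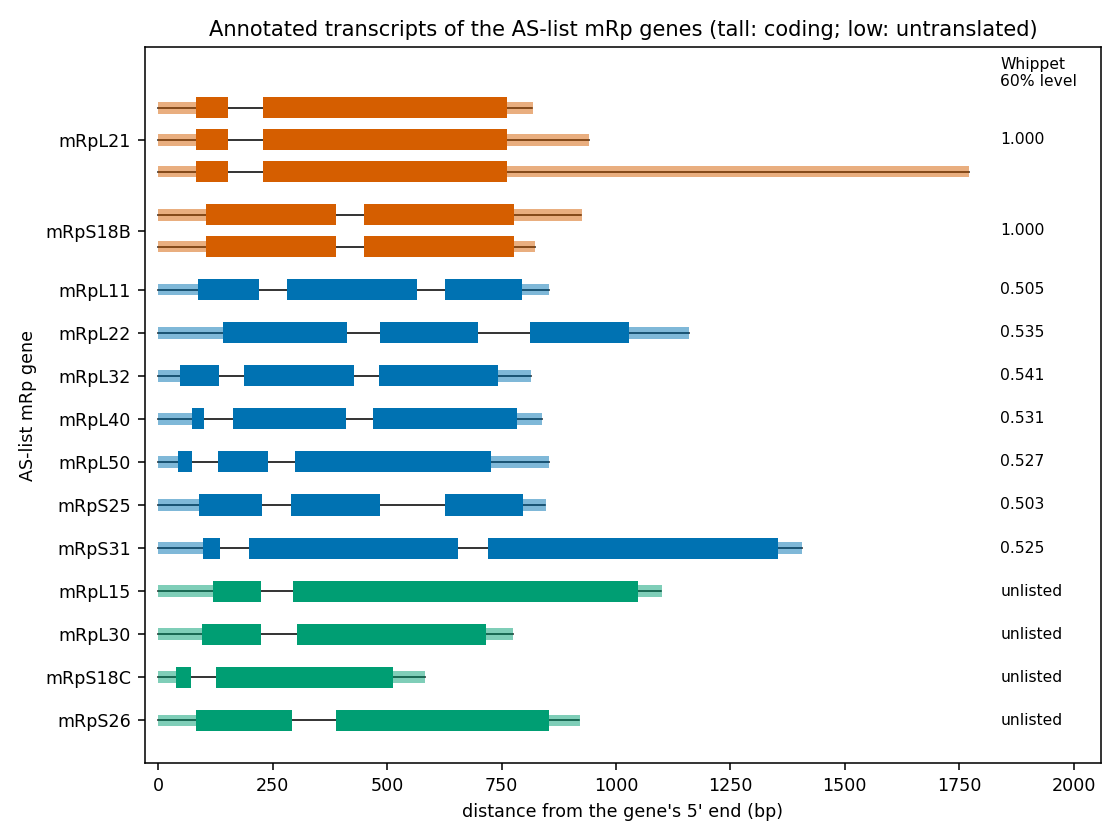
Exons (boxes, tall where coding) and introns (lines) of every annotated transcript of the 13 AS-list members are drawn by distance in bp from the gene's 5′ end, with the Whippet score at the 60% level at the right. The transcripts of mRpL21 and of mRpS18B (orange) differ only at their 3′ ends, 7 genes (blue) have 1 transcript with 2 introns, and 4 genes (green) have 1 transcript with 1 intron and are unlisted.

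The whole AS list showed the same division. Of the 209 AS-list genes with 1 transcript and 1 intron, Whippet listed 0 at the 60% level. Of the 466 with 1 transcript and 2 or more introns it listed 440 (94.4%), but only 2 (0.429%) were past the threshold, and the median score was 0.539. Of the 260 with several transcripts and 1 common intron chain it listed 248 (95.4%), and 191 (73.5%) were past the threshold. The members' counts of 0 of 4, 7 of 7 and 2 of 2 listed, with 0, 0 and 2 past the threshold, follow these shares. Of the non-AS-list members with 1 transcript and 2 or more introns, 6 of 19 were listed, beside 489 of 2822 such genes of that list (17.3%).

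**Figure D5:**
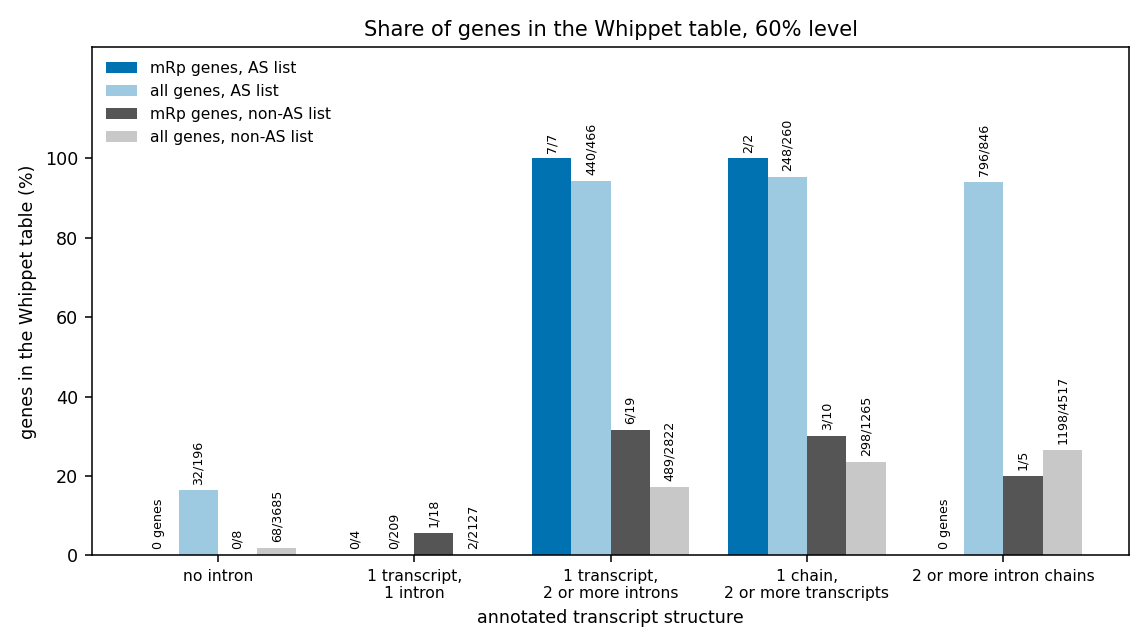
Bars show the percentage of genes present in the Whippet table at the 60% level (vertical axis) by annotated transcript structure (horizontal axis), for members and all genes of the AS list and the non-AS list, with counts above. For AS-list genes the share is 0 with 1 transcript and 1 intron and over 90% in the 3 structures to its right, as far as members have them.

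The members on the AS list were plainer in structure than the list they belong to. None of the 13 had 2 or more intron chains, whereas 846 of all 2000 genes on that list (42.3%) did, among them 13 of its 22 cytoplasmic ribosomal protein genes (59.1%). Over all 73 members 5 (6.85%) had 2 or more chains, beside 32.3% of all genes, and all 5 (mRpL14, mRpL23, mRpS5, mRpS6 and mRpS10) were on the non-AS list. The AS-list members had a median of 2 introns (1 to 2) and a median span of 854 bp (583 to 1772), while all AS-list genes had medians of 3 introns and 2621 bp. Among all AS-list genes with 1 annotated transcript, 832 in number, 7 (0.841%) were past the threshold in at least 1 program at the 60% level. Among those with 2 or more intron chains 699 (82.6%) did. The 11 single-transcript members of the AS list had 0 past the threshold.

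On the non-AS list 2 of the 60 members (3.33%) were past the threshold in at least 1 program at the 60% level, beside 1.75% of all non-AS-list genes. None did at the 40% level, where 1.53% of that list did, or at the 20% level, where 1.14% did. The 2 genes were mRpS9, in MAJIQ, and mRpS10, in Whippet. Both encode small-subunit proteins with bacterial counterparts.

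mRpS9 is the counterpart of a bacterial protein whose tail reaches towards the decoding site (FBgn0037529, arm 3R, 7889277 to 7902667, minus strand). In the authors' deposited tables its MAJIQ score was 0.999 at the 60% level, 0.159 at 40% and 0.00352 at 20%. Only the first of these 3 scores was high, and 644 of the 1993 genes in that table scored higher. Whippet gave it 0.544, 0.509 and 0.531 in the authors' deposited tables, and Cufflinks 0. JUM listed it at the 20% level alone, at 0.439 in the authors' deposited table, the level at which its MAJIQ score was lowest. Its span of 13391 bp is the longest of the 73 members, which have a median of 909 bp, and it has 1 annotated transcript with 6 introns. On the opposite strand it overlaps ArgRS-m, the mitochondrial arginyl-tRNA synthetase gene, by 874 bp, and the gene wtrw by 9817 bp. ArgRS-m, under its older symbol CG10092, is on the AS list, and in the authors' deposited tables its Whippet scores were 1, 1 and 0.969 and its Cufflinks scores 1.000, 1.000 and 0.925 at the 60%, 40% and 20% levels. Its MAJIQ scores in the authors' deposited tables were 0.0201, 0.0501 and 0.0477. The part of the overlap in the MAJIQ score of mRpS9 was not tested.

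mRpS10 is the counterpart of a bacterial protein that also takes part in transcription antitermination (FBgn0038307, arm 3R, 15229665 to 15230516, plus strand). Its Whippet score in the authors' deposited tables was 0.97 at the 60% level, 0.705 at 40% and 0.825 at 20%. JUM gave it 0.202, 0.0177 and 0.784 in the authors' deposited tables, so its highest Whippet and JUM scores fell at opposite ends of the levels. MAJIQ gave it 0.152, 0.0877 and 0.0342 in the authors' deposited tables, and Cufflinks 0. It has 2 annotated transcripts with different 5′ ends, of 3 and 2 exons, which encode 163 and 173 codons. mRpS10 is thus the 1 Whippet-listed member with 2 intron chains.

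mRpS16, the counterpart of the bacterial protein S16, was the only member in the rMATS table (FBgn0033907, arm 2R, 14172986 to 14173596, minus strand). In the authors' deposited tables rMATS gave it 0.0914, 0.356 and 0 at the 60%, 40% and 20% levels. Its Whippet scores in the authors' deposited tables were 0.742, 0.538 and 0.857, its JUM scores 0.0827, 0.185 and 0.164, and its MAJIQ scores at most 0.00651. It passed no threshold, and in none of these 4 programs was its score at the 40% level between the scores at the other levels. It has 1 transcript with 1 intron in this annotation. Of the 2127 non-AS-list genes with that structure, rMATS listed 1 at the 60% level, which is mRpS16, and Whippet listed 2, of which it is 1.

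The remaining members that MAJIQ listed were mRpL53, mRpS2 and mRpS24, and their scores were at most 0.0282 at every level in the authors' deposited tables. JUM listed mRpL53 at the 40% level alone, at 0.192 in the authors' deposited table. mRpL53, a large-subunit protein gene, lies wholly within CG33155 on the same strand and AGO1, an Argonaute gene, on the opposite strand. JUM gave CG33155, on the non-AS list, a score of 0.979 at the 60% level in the authors' deposited table, where mRpL53 was unlisted. At the 40% level JUM did not list CG33155, and at the 20% level it gave 0.688 in the authors' deposited table. MAJIQ gave CG33155 at most 0.0276 in the authors' deposited tables. Of the 6 members listed by JUM, MAJIQ or rMATS, 5 (83.3%) overlap another annotated gene. This stood beside 38 of the other 67 members (56.7%), 8 of the 13 AS-list members (61.5%) and 48.4% of all matched genes. The overlaps of these 5 genes ran from 13 bp (mRpS16) to 9817 bp (mRpS9). Members that these programs did not list also overlap genes with high scores. mRpL13 lies wholly within CG10602 on the same strand, a non-AS-list gene. JUM gave CG10602 0.969, 0.939 and 0.766 at the 60%, 40% and 20% levels in the authors' deposited tables. mRpL48 overlaps frtz, an AS-list gene, by 164 bp on the opposite strand. JUM gave frtz 1, 1.000 and 0.999 in the authors' deposited tables. The part of the overlaps in the listing was not tested.

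The other Whippet-listed members of the non-AS list, besides mRpS9, mRpS10, mRpS16 and mRpL53, were mRpL1, mRpL3, mRpL13, mRpL16, mRpL33, mRpS14 and mRpS30. mRpL16 came nearest to the threshold without passing it, with 0.83, 0.758 and 0.872 from the 60% to the 20% level in the authors' deposited tables. mRpS14 had 0.748, 0.629 and 0.565 in the authors' deposited tables, lower at each smaller level, while mRpL33 had 0.504, 0.595 and 0.639, higher at each. Both proteins have bacterial counterparts, as does mRpL16. Of the 7 listed non-AS-list members with 1 transcript, 5 moved between levels by no more than 0.041, the widest range of the AS-list members with 1 transcript, and mRpS16 and mRpL33 moved by 0.319 and 0.135. mRpL16 and mRpS30 have 2 annotated transcripts each, which differ in their 3′ ends, 207 and 249 bp apart. Of the 12 members with several annotated 3′ ends, the 2 on the AS list were both past the Whippet threshold, and of the 10 on the non-AS list Whippet listed 2 and put none past it. The non-AS-list members with several transcripts and 1 common intron chain are a slightly different set of 10. At the 60% level Whippet listed 3 of them (30%) and put none past the threshold. Of all non-AS-list genes with that structure, Whippet listed 23.6% and put 1.82% past the threshold at the 60% level.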

How the data were processed

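The libraries were simulated: 12 in total, with 3 for the control and 3 for each of 3 PSI knockdown levels. Per the submitters' processing notes, dm3 was the genome build, and STAR 2.5.4b and Cufflinks were used. How reads were simulated, how deep, and with what settings each program ran is not stated in the sources used here. Each of the 18 tables that the authors deposited pairs a gene with a score and a label for its list, and 2 further files hold the gene lists. The deposited score column was used as it stands, with the scale read from its values: MAJIQ and Whippet as probabilities, JUM, rMATS and Cufflinks as a p-value or q-value subtracted from 1, and MISO as a Bayes factor. The label matched the lists for every gene. Between 8 and 10 rMATS genes per level had scores below 0, none of them a member.

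Counts were made over all 16595 genes, with unlisted genes as not past the threshold. The Ensembl annotation of BDGP 6.54 (release 115) gave a match for the symbols of 16393 genes (98.8%), 12402 by current and 3991 by older symbol, and all 73 members by current symbol. Coordinates and structures are from that annotation, not from dm3, and the transcripts used in the simulation may have differed. Genes overlap where their spans do, on either strand.

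The members and the gene lists were chosen with earlier results of these data known. The rule named every AS-list member, every non-AS-list member past the threshold in any table, and AS-list genes of 3 mitochondrial lists. Other genes were named after their values were seen. Alternatives were thresholds of 0.9 (Bayes factor 5) and 0.99 (20), a false positive rate of 5%, 2 or more programs, leaving Whippet out, and other ways to choose members. The counting was tested on made-up tables. Python 3.11.15 and matplotlib 3.10.9 were used.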

Additional observations from a re-analysis of the deposited data

How the results depend on the processing

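The count of members past the threshold rests on Whippet and on the rule. Without Whippet it was 1 (mRpS9), 0 and 0 of 73 at the 60%, 40% and 20% levels, beside 5.67%, 5.12% and 4.18% of all genes, and 0 of the 13 AS-list members at each, beside 37.8%, 35.2% and 29.4% of all AS-list genes. Asking for 2 or more programs left 0 in both sets at every level. At the 60%, 40% and 20% levels 4.52%, 4.16% and 3.41% of all genes met that rule. Of all AS-list genes 35.5%, 33.3% and 27.4% did. With the threshold at 0.99 and a Bayes factor of 20, 1 gene (mRpS18B) stayed past it at the 20% level, in both sets. This stood beside 4.77% of all genes and 35.6% of all AS-list genes. At a false positive rate of 5% the count over all members was 10, 8 and 8, beside 14.5%, 14.1% and 13.8% of all genes. The rate was set for each program separately over all non-AS-list genes, listed or not, and so let in low scores. At the 60% level the lowest scores counted were 0.731 in Whippet, 0.158 in JUM and 0.00148 in MAJIQ. They were 0.00163 in rMATS, 5.9e-05 in Cufflinks and 0 in MISO. At that rate the AS-list members numbered 3, 2 and 2, with mRpS25 added at the 60% level, beside 51.9%, 50.6% and 49% of all AS-list genes. With genes of other names 13 of 75 were on the AS list. Among genes that a program other than Cufflinks listed, 9 of 22 members (40.9%) were on it, beside 39.4% of all such genes, so the members' share, 17.8% beside 12.1% over all genes, was there close to that of all genes. These last counts on the AS list, 13 and 9, stayed within 1.5 times the main count of 13. Counts at the threshold of 0.9 also stayed within 1.5 times their main values. So did those at 0.99 for the 60% and 40% levels, and the AS-list counts at the 5% rate. Over all 32 alternatives 15 counts did so and 17 did not. No paired analysis was possible because each table pools the libraries of its comparison, and leaving out a replicate was not possible for the same reason. The cause of these differences was not tested.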

Other observations

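The genes tko and bonsai encode mitochondrial ribosomal proteins under other names. Both were on the non-AS list, and Cufflinks alone listed them, at 0 in the authors' deposited tables. Of a list of 10 genes for mitochondrial transcription, translation factors and their regulation, 3 were on the AS list, beside 12.1% of all genes. A program other than Cufflinks listed 2 of the 10, beside 24.1% of all genes. At each level 1 of the 10 passed the threshold in at least 1 program, beside 7.18%, 6.66% and 5.65% of all genes. That gene was mtRNApol, the mitochondrial RNA polymerase, with Whippet scores of 1, 1 and 0.977 and Cufflinks scores of 1.000, 1.000 and 0.890 at the 60%, 40% and 20% levels in the authors' deposited tables. Unlike the AS-list members it was also listed by JUM, at 0.254, and by MAJIQ, at 2.42e-18, both at the 60% level alone in the authors' deposited tables. It has 2 annotated transcripts with 1 common intron chain, as mRpL21 and mRpS18B have several transcripts with a common chain. The gene ico, for mitochondrial elongation factor G, has 1 transcript, and its Whippet scores were 0.504, 0.524 and 0.524 in the authors' deposited tables. mTerf3, of a family of mitochondrial transcription regulators, has 1 intron, and only Cufflinks listed it, at 0 in the authors' deposited tables.

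In a list of 3 genes for mitochondrial aminoacyl-tRNA synthetases and a relative, which leaves out ArgRS-m (CG10092, on the AS list and past the threshold in Whippet at every level, as described with mRpS9), Aats-ala-m, which charges the mitochondrial alanine tRNA, was on the AS list. It has 1 transcript with 9 introns, and its Whippet scores in the authors' deposited tables were 0.527, 0.542 and 0.573, higher at each smaller level. Of 24 genes for subunits of the respiratory chain and ATP synthase, 5 were on the AS list (20.8%), beside 12.1% of all genes, and 13 (54.2%) were listed by a program other than Cufflinks, beside 24.1%. Of these 24, 3, 2 and 1 passed the threshold in at least 1 program at the 60%, 40% and 20% levels, beside 7.18%, 6.66% and 5.65% of all genes.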
